A study of Neotoma lepida with 16 samples.

Results

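The genes described here encode the enzymes that attach ubiquitin to proteins and take it off again, measured in the liver of desert woodrats (Neotoma lepida, a wild-caught herbivorous rodent) from 2 populations on 2 plant diets. Members were taken by gene symbol, with the suffix for predicted genes removed. They were all probes whose symbol begins with Ube1, Ube2, Ube3, Ube4, Uba, Uch, Usp and a digit, or Otub. Symbols that begin with Ubap or Ubash were left out. The array held 117 such probes for 77 genes, among 41012 probes for 35561 genes or transcripts. Of these 77 members, 70 passed the filter on dim probes and were tested, among 26514 genes tested in all. The 7 others were Ube2l6, Ube2t, Ube2v2, Usp15 and Usp38, whose probes were above background on 0 of the 16 arrays, and Usp25 and Usp29, whose best probes were above background on 3.

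Each of the 16 arrays held liver RNA of 1 animal, labelled with Cy5, against a Cy3-labelled equimolar pool of the 16 livers. The 4 groups were Great Basin woodrats fed creosote, Great Basin woodrats fed juniper, Mojave woodrats fed creosote and Mojave woodrats fed juniper, with 4 animals each. All animals had spent 3 months in captivity on rabbit chow and then received the plant in rising amounts over 5 days; their ages are not given in the sources used here. No animal on chow alone was among the 16, so a gene higher on creosote is equally a gene lower on juniper. The Mojave animals fed creosote were 4 males, and each other group had 2 males and 2 females, so sex was a term in every fit. The probes were designed for rat and the RNA was woodrat; how well each probe matches the woodrat sequence was not examined.

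Ubiquitin is a small protein that is joined to other proteins by a relay of enzymes: an activating enzyme (E1) charges it, a conjugating enzyme (E2) carries it, and a ligase (E3) places it on the target, with E4 factors extending the chain. Chains of some linkages send proteins to the proteasome for breakdown, while others alter location or activity. Deubiquitinating enzymes, chiefly the ubiquitin-specific proteases (USP), the ubiquitin C-terminal hydrolases (UCH) and the otubains of the OTU family, cut the chains off, edit them and recycle the ubiquitin. Some enzymes in the same families handle related modifiers, such as NEDD8, SUMO, UFM1 and the interferon-induced ISG15.

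Values are log2 ratios of an animal over the pool, so 0 is the level of the pool and a difference of 1 is a 2-fold change. Over the 16 arrays, 46.4% to 76.2% of probes were well above background, and the dimmest of the 4 slides averaged 49.2% against 66.0% to 71.7% on the others. Each slide carried 1 animal of each group, at fixed positions, so neither diet nor population can be told apart from position on the slide. Hepatocyte markers were present as the tissue label requires: probes for 12 of 15 were above background on all 16 arrays, while the probes for Apoa1 and Tf were above it on 0. The mean of the 13 hepatocyte markers tested was 0.50 to 0.73 in Great Basin animals on creosote and 0.00 to 0.04 on juniper, and 0.35 to 0.58 against -0.01 to 0.05 in Mojave animals; its part in the results below was not tested. Of the markers of other cell types, the Kupffer cell gene Cd14 was lower on creosote in Great Basin animals, and the stellate cell gene Rgs5 was higher in them. The stellate cell gene Timp1, the endothelial gene Xlkd1 and the neutrophil gene Csf3r were higher on creosote in both populations. These were single calls from longer lists. Of 9 Kupffer cell markers, 1 was called in Great Basin and 0 in Mojave animals. In each population 1 of 8 endothelial and 1 of 7 neutrophil markers was called. The list medians, Great Basin then Mojave, were -0.0092 and 0.023 (Kupffer cell), 0.092 and -0.041 (endothelium) and -0.046 and 0.0008 (neutrophil). The mean of the 10 stellate cell and fibroblast markers tested was 0.05 to 0.33 in Mojave animals on creosote and -0.26 to 0.05 on juniper. In Great Basin animals it was -0.16 to 0.37 on creosote and -0.30 to 0.10 on juniper, which overlapped. The markers of cholangiocytes (4 tested), lymphocytes (6) and erythroid cells (4) gave 0 calls. In liver RNA, fewer cells of a type and less RNA per cell cannot be told apart.

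In Mojave woodrats the members called by the test were all lower on creosote than on juniper. Of the 70 members tested, 16 fell and 0 rose (22.9%), beside 9.55% of all genes called in that comparison, 5.73% lower and 3.82% higher. They were 6 conjugating enzymes (Ube2d2, Ube2g1, Ube2g2, Ube2m, Ube2q and Ube2z), the chain elongation factor Ube4b, and 9 genes named as ubiquitin-specific proteases (Usp5, Usp10, Usp14, Usp19, Usp22, Usp24, Usp28, Usp39 and Usp47). Of these, Usp39 keeps the protease fold without the activity. The largest difference was that of Usp5, at 2.36-fold. Over all members tested, 53 of 70 (75.7%) had a difference below 0, against 51.0% of all genes, and the median difference was -0.15 against -0.0039.

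In Great Basin woodrats few members were called, and in both directions. Usp18 and Usp52 rose on creosote and Usp5, Usp14 and Ube4b fell, which is 5 of 70 (7.14%) beside 3.99% of all genes called, 2.06% higher and 1.93% lower. Members below 0 numbered 38 of 70 (54.3%) against 51.7% of all genes, and the median difference was -0.037 against -0.0057. The 3 genes that fell in Great Basin animals also fell in Mojave animals, so 18 members were called in at least 1 population. Calls are limma moderated tests with Benjamini-Hochberg adjustment over the 26514 genes, at an adjusted p below 0.05; the median standard error of a member's difference was 0.11 in Great Basin and 0.12 in Mojave animals.

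**Figure D1:**
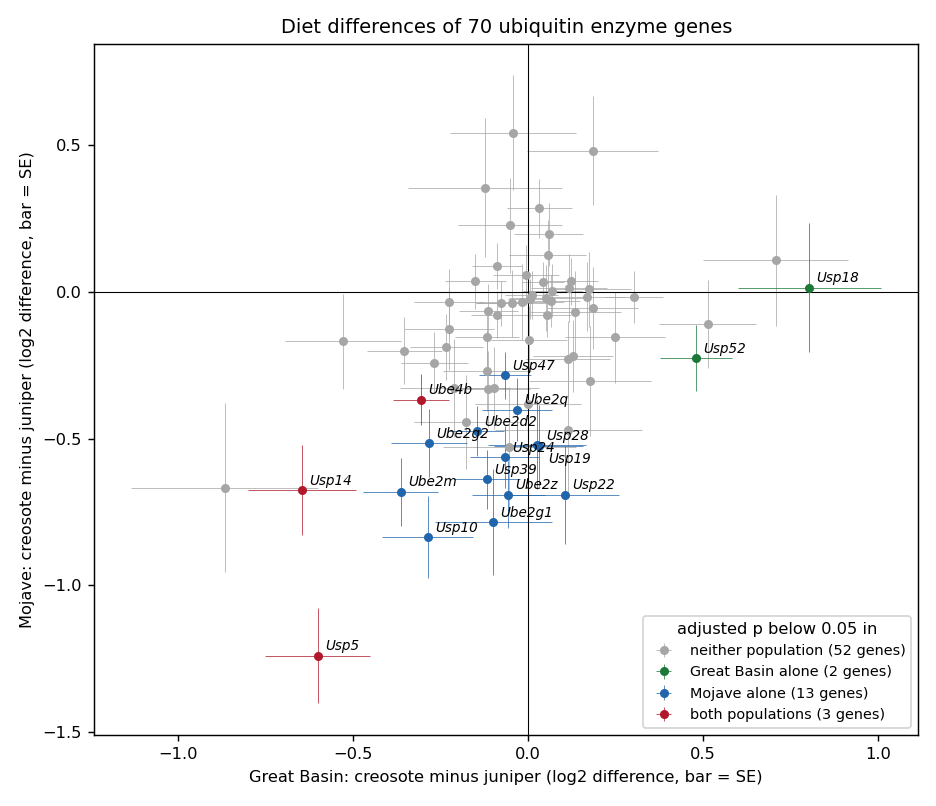
Log2 difference between creosote and juniper in Great Basin animals (horizontal axis) and in Mojave animals (vertical axis) for the 70 members tested; bars are standard errors of the fit and colours mark the populations in which a member was called. The 13 members called in Mojave animals alone lie below the horizontal line, on both sides of the vertical one. On the Great Basin axis they run from -0.36 (Ube2m) to 0.11 (Usp22), so Ube2m lies further left than Ube4b (-0.30). Usp5, Usp14 and Ube4b lie below and left of both lines, and Usp18 and Usp52 lie to the right.

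Between single animals the same shift was small but did not overlap in the Mojave population. The median over the members ran from -0.13 to -0.08 in the 4 Mojave animals on creosote and from 0.03 to 0.06 in the 4 on juniper. In Great Basin animals it ran from -0.11 to 0.01 on creosote and from -0.06 to 0.03 on juniper, so these groups overlapped. Within the 4 slides, the median Mojave difference of the members was -0.09, -0.17, -0.16 and -0.16. Of the 66 members with a value on all 8 arrays of a population, 16 had all 4 Mojave creosote animals below all 4 juniper animals and 2 had them all above, shares set beside 9.18% and 7.21% of all genes. For the Great Basin animals the counts were 6 below and 5 above, beside 5.26% and 5.01%.

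How the Mojave count stands beside other genes differed with probe brightness, and the count itself changed with the normalisation. Divided at the members' own median brightness, 8 of 35 brighter members fell, beside 16.2% of the 4386 genes as bright, and 8 of 35 dimmer members fell, beside 3.65% of the other 22128. With each array centred on its median in place of the loess curve, which removes a dependence of the ratio on brightness, 34 members fell and 0 rose in Mojave animals, beside 15.5% of all genes lower. For Great Basin animals the same setting left 4 members higher and 0 lower, namely Usp18, Usp52, Ube1l and Ube2e3, beside 4.36% of all genes called, and the calls of Usp5, Usp14 and Ube4b were lost. With the authors' deposited log ratios, 10 members fell in Mojave animals, beside 3.45% of all genes lower, and Usp52 alone was called in Great Basin animals, beside 2.68% of all genes called.

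Among the activating enzymes, 0 of 3 tested passed the threshold in either population. The largest difference was that of Ube1l, the activating enzyme of ISG15. In Great Basin animals 1 to 4 its log2 ratios were 1.05, 0.94, 0.04 and 0.00 on creosote and -0.25, -0.07, -0.04 and -0.45 on juniper. All 4 creosote animals lay above the juniper animals, with animals 1 and 2 far above the rest. The difference of 0.71 ± 0.21 (SE) missed the threshold (limma adjusted p = 0.0716), and the Mojave difference was 0.11 ± 0.22. Ube1c, the catalytic subunit of the NEDD8 activating enzyme, differed by -0.11 in Great Basin and -0.065 in Mojave animals. Ube1dc1, the activating enzyme of UFM1, differed by -0.12 in Great Basin and -0.15 in Mojave animals on its brightest probe. Its second probe, above background on all 16 arrays too, differed by -0.31 and -0.81 in the same order, so the 2 probes for this gene disagree in size; with their mean, Ube1dc1 was called in Mojave animals (-0.48, limma adjusted p = 0.00445).

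Of the 22 conjugating enzymes tested, 6 fell and 0 rose on creosote in Mojave woodrats, and 0 were called in Great Basin woodrats. Differences below 0 were found for 19 of 22 in Mojave and 17 of 22 in Great Basin animals, with medians of -0.22 and -0.08. The 16 not called in Mojave animals ranged from -0.53 to 0.23, and all 22 in Great Basin animals from -0.53 (Ube2e2) to 0.51 (Ube2e3). The Ube2e2 probe had values on 9 arrays, and its Great Basin difference rests on 2 creosote animals (-0.19 and -0.05) and 1 juniper animal (0.41). The other Ube2e2 probe, with values on all 16 arrays, differed by 0.021 in Great Basin and -0.25 in Mojave animals.

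Ube2m, the conjugating enzyme of NEDD8 and so a partner of the cullin ligases, read -1.02, -0.48, -0.59 and -0.53 in Mojave animals 1 to 4 on creosote and -0.09, 0.08, 0.03 and -0.03 on juniper. The creosote animals were all well below the juniper animals, and animal 1 was the lowest. Its difference was -0.68 ± 0.12 (limma adjusted p = 0.00201). Great Basin animals read -0.52, -0.43, -0.32 and -0.67 on creosote and -0.22, -0.17, -0.08 and -0.01 on juniper, again without overlap. The difference of -0.36 ± 0.11 missed the threshold (limma adjusted p = 0.0748). Ube2m was called there with slide as a block (limma adjusted p = 0.0308), without Mojave creosote animal 1 (limma adjusted p = 0.0143) and without Great Basin creosote animal 3 (limma adjusted p = 0.0499).

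Ube2z receives ubiquitin from the alternative activating enzyme UBA6. It read -0.95, -0.83, -0.55 and -0.54 in the Mojave creosote animals and 0.00, -0.09, -0.06 and 0.15 in the juniper animals, a gap with no overlap. The difference was -0.69 ± 0.11 (limma adjusted p = 0.00166). The Great Basin animals, at -0.27, -0.19, -0.03 and -0.45 on creosote and -0.15, -0.11, -0.31 and -0.15 on juniper, overlapped fully, and the fitted difference was -0.06.

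Ube2d2, of the UbcH5 group that serves many RING ligases, read -0.50, -0.44, -0.13 and -0.24 on creosote and 0.14, 0.13, 0.05 and 0.20 on juniper in Mojave animals. Those groups did not overlap, and the difference was -0.48 ± 0.09 (limma adjusted p = 0.00274). The Great Basin animals read -0.11, 0.07, -0.07 and -0.12 on creosote and 0.09, 0.05, 0.09 and 0.12 on juniper. There, creosote animal 2 lay among the juniper animals and the fitted difference was -0.15.

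Ube2g1 and Ube2g2 are close relatives, and Ube2g2 works in the degradation of misfolded proteins of the endoplasmic reticulum. Ube2g2 read -0.25, -0.55, -0.18 and -0.24 in Mojave creosote animals and 0.18, 0.16, 0.30 and 0.18 in juniper animals, with a difference of -0.515 ± 0.12 (limma adjusted p = 0.0113). Great Basin animals read -0.16, -0.12, 0.07 and -0.49 on creosote and 0.03, 0.15, 0.03 and 0.22 on juniper; creosote animal 3 overlapped the juniper animals, and the difference was -0.28. Ube2g1 spread more widely in Mojave creosote animals, at -0.95, -1.39, -0.52 and -0.55, all below the juniper animals at -0.04, 0.09, -0.19 and -0.06. Its difference of -0.78 lost its call when Mojave juniper animal 2 was left out (-0.71, limma adjusted p = 0.0608).

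Ube2q differed by -0.40 in Mojave animals, the smallest of the 6 falls, from -0.57 to 0.00 on creosote and 0.09 to 0.22 on juniper. The call was lost without Mojave creosote animal 2 or without Mojave juniper animal 1, 2 or 4 (differences of -0.42 to -0.38). Its further probes differed by 0.036 and -0.64 in Mojave animals, so 1 of the 2 ran the same way.

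The conjugating enzyme Ube2e3 stood just outside the threshold on the high side in Great Basin animals. It read 0.78, 0.11, 0.13 and 0.01 on creosote and -0.17, -0.30, -0.33 and -0.22 on juniper, without overlap and with animal 1 far above the other creosote animals. Its difference was 0.51 ± 0.14 (limma adjusted p = 0.0513), and it was called when sex was left out of the fit (limma adjusted p = 0.0454). The Mojave difference was -0.11, and the creosote and juniper animals overlapped.

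**Figure D2:**
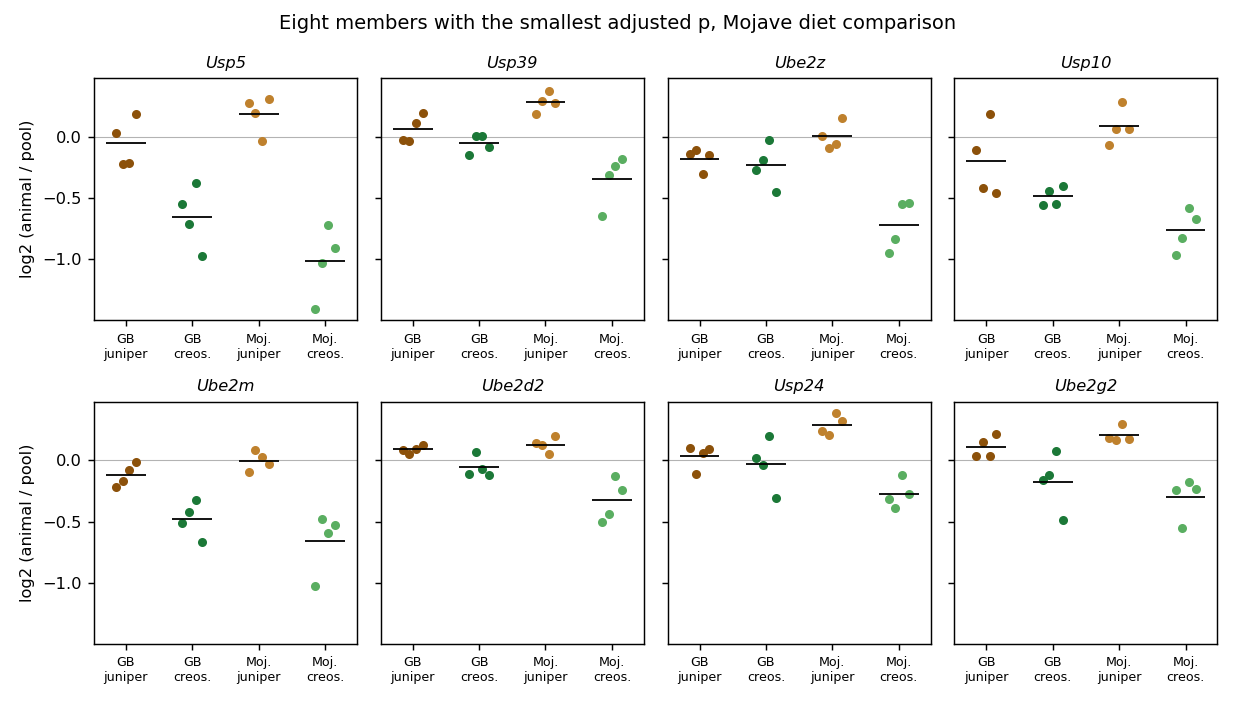
Log2 ratio of each animal over the pool (vertical axis) in the 4 groups (horizontal axis) for the 8 members of smallest adjusted p in the Mojave comparison; points are animals, lines are group means, GB is Great Basin and Moj. is Mojave. In all 8 panels the 4 Mojave creosote animals lie below the 4 Mojave juniper animals, and Usp5 and Ube2m also separate the diets in Great Basin animals.

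Of the 3 ligases and chain elongation factors, only Ube4b was called, and it fell in both populations. Ube4b is an E4 enzyme that lengthens ubiquitin chains and works with the segregase Vcp. In Mojave animals it read -0.19, -0.10, -0.08 and -0.02 on creosote and 0.18, 0.33, 0.24 and 0.36 on juniper. Great Basin animals read -0.26, 0.13, -0.01 and -0.13 on creosote and 0.24, 0.26, 0.31 and 0.14 on juniper. Neither population overlapped, though Great Basin creosote animal 2 and juniper animal 4 nearly met. The differences were -0.37 ± 0.09 in Mojave (limma adjusted p = 0.0146) and -0.30 ± 0.08 in Great Basin animals (limma adjusted p = 0.0466).

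Both Ube4b calls were fragile. A second probe, above background on 10 arrays, differed by 0.11 in Mojave and -0.0096 in Great Basin animals. With the mean of both probes the differences were -0.13 in Mojave and -0.16 in Great Basin animals, and neither was called. The Great Basin call was lost when any animal but Great Basin creosote 2 or Mojave creosote 1 was left out (14 of 16 animals, difference from -0.34 to -0.24), and the Mojave call without Mojave juniper animal 2 (-0.34, limma adjusted p = 0.0668). Ube3a, the ligase E6-AP, had the highest Mojave difference of any member, at 0.54 (limma adjusted p = 0.0999), and -0.043 in Great Basin animals. It was called in Mojave animals without the dimmest slide (0.79, limma adjusted p = 0.0204), without Great Basin creosote animal 1 (0.60) and without Mojave creosote animal 3 (0.67). Ube4a, the other E4 enzyme, differed by 0.13 in Mojave and 0.057 in Great Basin animals.

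The genes named as ubiquitin-specific proteases gave 9 falls and 0 rises among 35 tested in Mojave animals, and 2 rises and 2 falls in Great Basin animals. Their median difference was -0.19 in Mojave and 0.026 in Great Basin animals. Those not called ranged from -0.67 (Usp2) to 0.48 (Usp9x) in Mojave animals and from -0.87 (Usp2) to 0.25 (Usp53) in Great Basin animals. Usp2 had the lowest Great Basin difference of any member, with a standard error of 0.27 and a limma adjusted p of 0.0847; it was called with slide as a block (limma adjusted p = 0.0231) and without Great Basin creosote animal 2 (-1.09).

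Usp5, or isopeptidase T, takes apart free ubiquitin chains so that their ubiquitin can be used again. It read -1.41, -1.03, -0.72 and -0.91 in Mojave creosote animals and 0.28, 0.19, -0.04 and 0.30 in juniper animals. Great Basin animals read -0.55, -0.72, -0.38 and -0.97 on creosote and 0.03, -0.22, -0.21 and 0.19 on juniper. Diets did not overlap in either population, and all 8 creosote animals were below all 8 juniper animals. The Mojave difference was -1.24 ± 0.16 (limma adjusted p = 0.000379), and on every slide it was below 0 (-1.69 to -0.69). The Great Basin difference was -0.60 ± 0.15 (limma adjusted p = 0.0353) or 1.52-fold, and it was below 0 on all 4 slides. The Great Basin call was lost without Great Basin creosote animal 1, 2 or 4 or juniper animal 1, 2 or 4 (differences from -0.65 to -0.50).

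Usp14 sits on the proteasome and trims ubiquitin from proteins bound there. Its brightest probe had no value on 5 arrays, where the spot was marked an outlier by the scanner software. The values left were -0.25, -0.58, -0.50 and -0.31 in Mojave creosote animals, 0.07 and 0.37 in 2 juniper animals, -0.59 and -0.85 in 2 Great Basin creosote animals, and -0.21, -0.06 and 0.10 in 3 juniper animals. No creosote value reached a juniper value. The differences were -0.68 ± 0.15 in Mojave (limma adjusted p = 0.0215) and -0.64 ± 0.15 in Great Basin animals (limma adjusted p = 0.0473). The second probe, with values on all 16 arrays, differed by -1.34 in Mojave and -0.77 in Great Basin animals, so both probes ran the same way and the Mojave difference was larger on the complete one. The Mojave call was lost without Great Basin juniper animal 1 (-0.62) or Mojave juniper animal 3 (-0.48). The Great Basin call was lost without any single Great Basin animal but creosote 3, or without Mojave creosote animal 3 or 4 (-0.79 to -0.53). Apart from the loss of an animal, the Mojave call was lost in 4 other settings and the Great Basin call in 7.

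**Figure D3:**
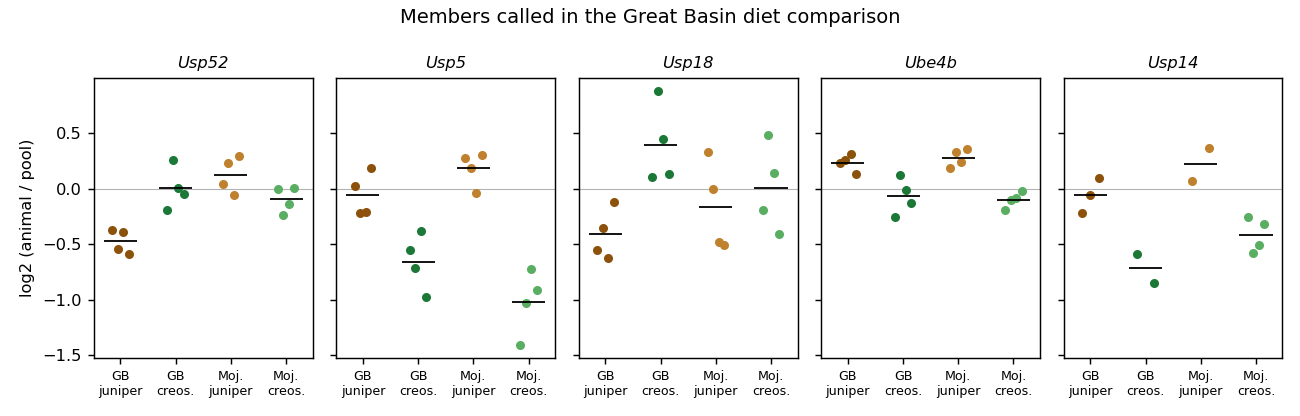
Log2 ratio of each animal over the pool (vertical axis) in the 4 groups (horizontal axis) for the 5 members called in the Great Basin comparison; points are animals, lines are group means, and Usp14 lacks 5 animals. In Great Basin animals every creosote point of Usp52 and Usp18 lies above the juniper points, and in Mojave animals the diets overlap for both, while Usp5, Ube4b and Usp14 are lower on creosote in both populations.

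Usp39 is a splicing factor that keeps the protease fold without the activity. It read -0.65, -0.32, -0.24 and -0.18 in Mojave creosote animals and 0.18, 0.29, 0.38 and 0.27 in juniper animals, well apart. The difference was -0.64 ± 0.10 (limma adjusted p = 0.00141). The Great Basin readings of -0.15, 0.01, 0.01 and -0.09 on creosote overlapped -0.03, -0.03, 0.11 and 0.19 on juniper, and the difference was -0.12.

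Usp10 removes ubiquitin from p53 and other targets and binds the stress granule protein G3BP. It read -0.97, -0.82, -0.58 and -0.67 on creosote and -0.07, 0.07, 0.29 and 0.06 on juniper in Mojave animals, without overlap. The difference was -0.84 ± 0.14 (limma adjusted p = 0.00182), and a second probe differed by -0.34 there. Great Basin animals read -0.56, -0.44, -0.55 and -0.40 on creosote and -0.11, -0.42, 0.19 and -0.46 on juniper. There, 2 juniper animals lay among the creosote animals, and the difference was -0.29.

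Usp24, a large protease of this family, read -0.31, -0.39, -0.12 and -0.27 in Mojave creosote animals and 0.24, 0.21, 0.39 and 0.32 in juniper animals. Those groups were clearly apart, with a difference of -0.56 ± 0.11 (limma adjusted p = 0.00368), and on the 4 slides the difference ran only from -0.60 to -0.50. The Great Basin readings of 0.02, -0.04, 0.20 and -0.31 on creosote and 0.10, -0.11, 0.06 and 0.09 on juniper overlapped. The further Usp24 probes differed by -0.28 and -0.19 in Mojave animals.

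The other 4 proteases that fell in Mojave animals did so with limma adjusted p between 0.0166 and 0.0426. Usp22, the histone deubiquitinase of the SAGA complex, differed by -0.69, from -0.77 to -0.09 on creosote and 0.11 to 0.28 on juniper, and lost its call in males alone (-0.61). Usp28, a protease that stabilises Myc, differed by -0.52, and its call was lost without Mojave creosote animal 1 or 2 or Mojave juniper animal 1, 2 or 3 (-0.55 to -0.47). Usp19, which is anchored in the endoplasmic reticulum, differed by -0.52, and Usp47, a protease with a part in base excision repair, by -0.28. The calls of Usp19 and Usp47 were lost when any animal but Great Basin creosote 3, Great Basin creosote 4 or Mojave creosote 3 was left out (13 of 16 animals each). The Great Basin differences were 0.11 for Usp22, 0.03 for Usp28, 0.026 for Usp19 and -0.065 for Usp47.

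Usp52 and Usp18 were the members that rose in Great Basin animals on creosote. Usp52, also known as Pan2, belongs to a deadenylase complex that shortens messenger RNA tails and is grouped with the proteases by sequence. It read -0.19, 0.26, 0.01 and -0.04 on creosote and -0.37, -0.54, -0.39 and -0.59 on juniper in Great Basin animals, without overlap. In Mojave animals it read 0.00, -0.23, -0.14 and 0.01 on creosote and 0.04, 0.23, -0.06 and 0.30 on juniper, which overlapped. The Great Basin difference was 0.48 ± 0.10 (limma adjusted p = 0.0159); it was 0.76 with a smaller background offset of 16 and 1.68 in the authors' deposited log ratios. The call was lost without Great Basin juniper animal 2 (0.46) or 4 (0.43). The Mojave difference was -0.22 (limma adjusted p = 0.258).

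Usp18 removes ISG15 from proteins and dampens interferon signalling. It read 0.10, 0.88, 0.45 and 0.14 in Great Basin creosote animals and -0.55, -0.35, -0.63 and -0.12 in juniper animals, without overlap and with the widest spread among the creosote animals. The difference was 0.80 ± 0.20 (limma adjusted p = 0.0387), or 1.75-fold. In Mojave animals -0.19, 0.48, 0.14 and -0.40 on creosote overlapped 0.33, 0.00, -0.48 and -0.51 on juniper, and the fitted difference was 0.015. A second Usp18 probe, above background on 6 arrays, differed by 0.048 in Great Basin animals, and the mean of both probes by 0.43 without a call. The call was also lost without Great Basin creosote animal 2, 3 or 4, any of the Great Basin juniper animals or Mojave juniper animal 2 (0.66 to 0.89). Isg15 itself, listed as G1p2, differed by -0.043 in Great Basin and 0.13 in Mojave animals, and neither passed.

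The calls that remained in all 29 alternative settings, including the loss of each animal in turn, were those of Usp5, Usp39, Usp10, Usp24, Ube2m and Ube2z in the Mojave comparison. In males alone, 7 members fell in Mojave animals, beside 2.42% of all genes lower, and 0 were called in Great Basin animals, beside 0.574% of all genes called. Without the dimmest slide, 14 fell and 1 (Ube3a) rose in Mojave animals, beside 6.56% of all genes called, and Usp52 alone was called in Great Basin animals, beside 1.48%. The Great Basin count also depended on single animals: it was 0 without Great Basin juniper animal 2 or 4, 1 without juniper animal 1, 2 without creosote animal 1 or juniper animal 3, 3 without Mojave creosote animal 4 or Mojave juniper animal 2, and 9 without Mojave creosote animal 1, where 4.69% of all genes were called.

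The remaining deubiquitinating families and the other proteins caught by the naming rule gave 0 calls in either population. Uchl5, a hydrolase bound to the proteasome, differed by -0.27 in Mojave and -0.12 in Great Basin animals on its brightest probe. Its second probe, above background on all 16 arrays too, differed by 0.092 in Mojave, with the opposite sign, and -0.46 in Great Basin animals. Uchl1, best known from neurons, differed by 0.059 in Mojave and -0.0061 in Great Basin animals. Otub1, which also blocks certain conjugating enzymes, differed by 0.20 in Mojave and 0.059 in Great Basin animals, and Otub2 by -0.16 and 0.0034. The members that are no enzymes of this relay include Ubadc1, a subunit of a ubiquitin ligase complex, which differed by 0.19 in Great Basin and -0.05 in Mojave animals, and Usp6nl, a regulator of a small GTPase, at 0.011 and -0.0094.

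**Figure D4:**
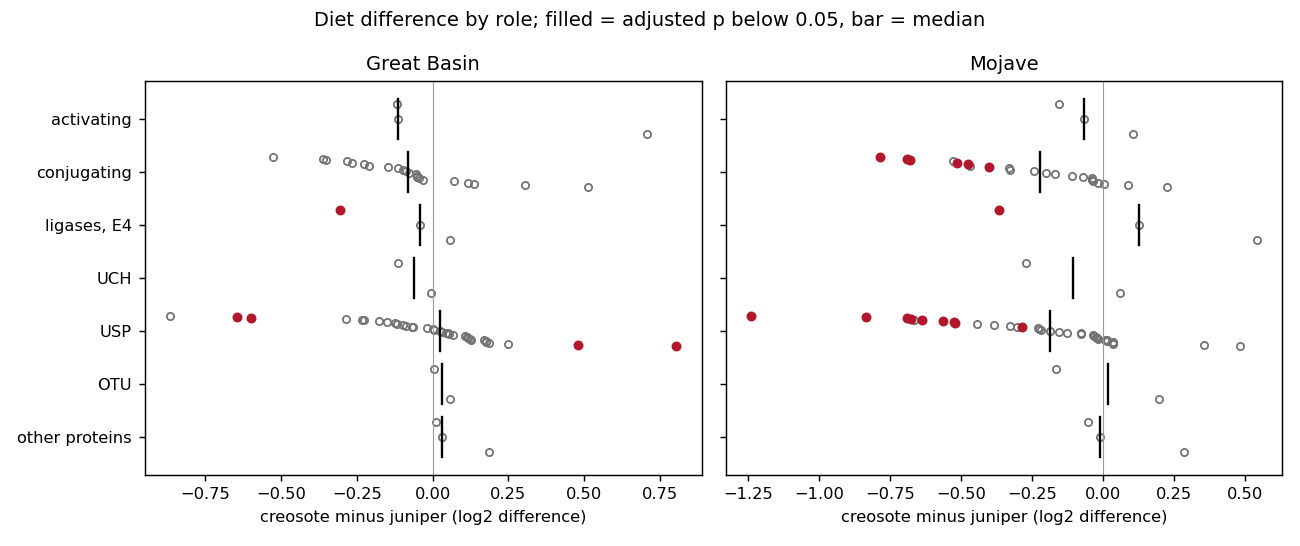
Log2 difference between creosote and juniper (horizontal axis, a separate scale in each panel) for the members tested, by role (vertical axis); points are genes, filled where called, and the bar is the median of the role. In the Mojave panel all filled points lie left of 0, in the conjugating, ligase and E4, and USP rows.

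No member was shown to respond differently in the 2 populations. The test of the difference between the diet effects called 0 of 70 members, beside 0% of all genes, with 16 members at an unadjusted p below 0.05. The share of all genes at that unadjusted p was not counted. The median of this difference over members was -0.14, beside 0.0002 over all genes. The Mojave difference was the lower of the 2 for 49 of 70 members (70%), beside 49.9% of all genes. The smallest adjusted p was that of Usp52, at 0.0967 (limma), for a difference of -0.71 ± 0.15. Its creosote animal was above the juniper animal on 4 of 4 slides in Great Basin and below on 4 of 4 in Mojave animals. With median centring, 19 members were called in this test, all lower, beside 9.15% of all genes, and without Great Basin creosote animal 4 it called 4, all lower: Ube2z, Usp24, Usp28 and Usp52.

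The populations did not differ in any member at the threshold either. On creosote, 0 of 70 members passed, beside 0.0792% of all genes, with 19 at an unadjusted p below 0.05; on juniper, 0 of 70 passed, beside 0.0113%, with 10. The share of all genes at that unadjusted p was not counted here either. The median member difference, Mojave minus Great Basin, was -0.10 on creosote and 0.07 on juniper, beside -0.0024 and -0.0047 over all genes. On creosote the count was 24 with median centring (23 lower in Mojave animals, beside 11.8% of all genes called), 1 without the sex term (Ube2z, -0.49), 2 without Great Basin creosote animal 4 (Ube2z, -0.52, and Usp49, -0.69) and 1 without Mojave creosote animal 3 (Usp49, -0.79).

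Usp49, a protease that acts on histone H2B, came nearest. It read 0.55, 0.65, 0.13 and 0.41 in Great Basin animals on creosote and 0.26, 0.82, 0.97 and 0.59 on juniper, against -0.25, -0.15, 0.06 and -0.28 and -0.02, -0.11, -0.43 and -0.06 in Mojave animals. All 8 Mojave animals were below all 8 Great Basin animals. The differences were -0.72 ± 0.14 on creosote (limma adjusted p = 0.0659) and -0.81 ± 0.13 on juniper (limma adjusted p = 0.0871), and its diet differences were -0.225 in Great Basin and -0.125 in Mojave animals.

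Outside the naming rule, some of the genes that hand ubiquitin-tagged proteins to the proteasome or to autophagy were lower on creosote. Of 19 ubiquitin shuttles, segregase partners and autophagy receptors tested, 5 fell and 0 rose in Great Basin animals, beside 1.93% of all genes lower, and 14 were not called. In Mojave animals 9 fell and 1 rose, beside 5.73% of all genes lower, and 9 were not called. The medians were -0.28 in Great Basin and -0.43 in Mojave animals. With median centring the Great Basin count was 1 lower (median -0.17), beside 1.60% of all genes, and the Mojave count 14 lower and 1 higher (median -0.94), beside 15.5% of all genes lower. The deposited log ratios gave 4 lower in Great Basin, beside 1.38%, and 7 lower with 1 higher in Mojave animals, beside 3.45% lower. The pairs of differences that follow are Great Basin, then Mojave. Vcp, the segregase that pulls tagged proteins out of complexes and membranes, differed by -0.66 and -0.82, and its cofactors Faf1 by -0.54 and -0.50, Ubxd2 by -0.48 and -0.78 and Nsfl1c by -0.42 (not called) and -0.45. The shuttles Ubqln1 and Rad23b, which bind both ubiquitin and the proteasome, differed by -0.83 and -0.97, and by -0.51 and -0.77. The autophagy receptors Sqstm1 (-0.85), Nbr1 (-0.82) and Tax1bp1 (-0.52) fell in Mojave animals and were not called in Great Basin animals, where they differed by -0.57, -0.13 and -0.28; the test of the difference between populations called 0 of the 19.

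Ubqln1 separated the diets most cleanly among these. It read -0.90, -0.87, -0.65 and -0.85 in Great Basin creosote animals, 0.14, -0.18, -0.07 and 0.17 in juniper animals, -0.57, -0.87, -1.02 and -0.84 in Mojave creosote animals and 0.05, 0.11, 0.35 and 0.25 in juniper animals, without overlap. Nploc4, a Vcp cofactor, ran the other way in Mojave animals, at 1.16, 2.22, 1.02 and 0.14 on creosote and -0.35, -0.54, -0.25 and -1.01 on juniper. Its difference was 1.69 ± 0.34 there and 0.25 in Great Basin animals, where it was not called.

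**Figure D5:**
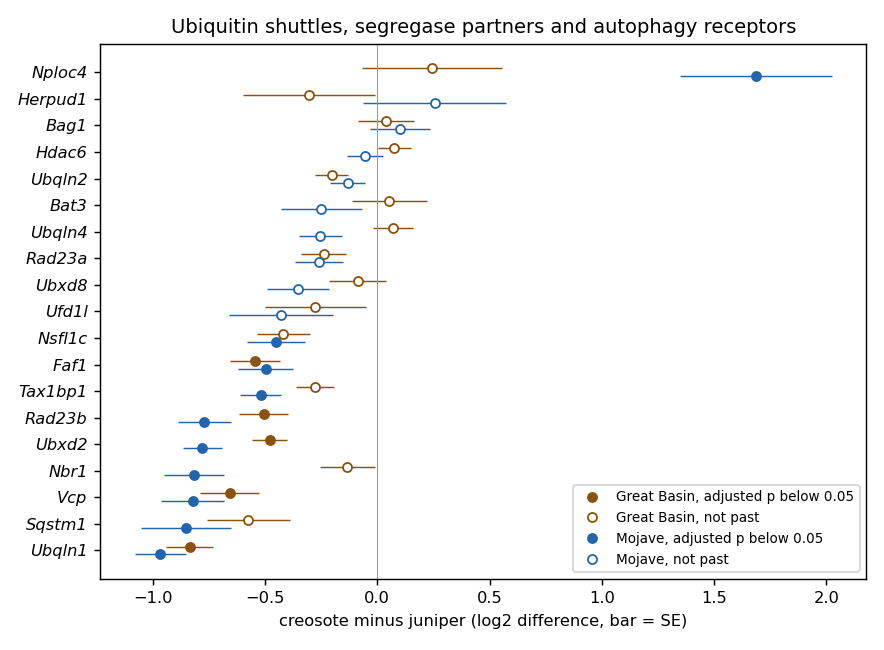
Log2 difference between creosote and juniper (horizontal axis) for the 19 ubiquitin shuttles, segregase partners and autophagy receptors tested (vertical axis); brown is Great Basin, blue is Mojave, filled points passed the threshold and bars are standard errors. Most points lie left of 0 in both populations, and Nploc4 lies far to the right in Mojave animals.

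In the other lists of the pathway the counts are set beside 3.99% of all genes called in Great Basin and 9.55% in Mojave animals. Of the genes that encode ubiquitin, Ubb differed by 0.0087 in Great Basin and -0.23 in Mojave animals and Rps27a by -0.024 and 0.15, and neither passed the threshold. Of 11 ubiquitin and ubiquitin-like genes, 1 was called in Great Basin animals, the autophagy modifier Map1lc3b, which fell (-0.48), and 0 in Mojave animals. Of 14 partners of ubiquitin-like proteins, Senp1 rose in Great Basin animals (0.40) and Senp3 (-0.64) and Senp5 (-0.59) fell in Mojave animals; all 3 are SUMO proteases. Of 12 conjugating and deubiquitinating enzymes under other names, Bap1 (-0.99) and Stambp (-0.45) fell in Mojave animals and 0 were called in Great Basin animals. With median centring, 8 of these 12 fell in Mojave animals, beside 15.5% of all genes lower.

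Of 41 ligases or ligase subunits, 2 rose and 1 fell in Great Basin animals and 1 rose and 6 fell in Mojave animals. Park2, or parkin, the mitochondrial ligase, rose in both, by 0.77 in Great Basin and 0.59 in Mojave animals. March5, another ligase of mitochondria, fell in both (-0.40 and -0.75), and Mdm2, the ligase of p53, rose in Great Basin animals (0.31). The Mojave falls also included Rnf4 (-0.57), Cul1 (-0.47), Rnf14 (-0.41) and Vhl (-0.31). With median centring, 18 ligases fell and 1 rose in Mojave animals, beside 18.0% of all genes called, and 2 rose and 0 fell in Great Basin animals, beside 4.36%. Among 3 regulators of proteasome genes, Nfe2l1, which drives their transcription when the proteasome is short, fell in both populations (-0.80 and -1.14), and the heat shock factor Hsf2 fell in Mojave animals (-0.75).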

How the data were processed

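Single-animal livers were hybridised to 2-colour Agilent rat arrays with 43379 probe spots. Scanner intensity values were deposited as Agilent Feature Extraction 9.1.3.1 wrote them, per the file headers, and the authors' deposited log2 ratios of animal over pool were used as an alternative. Here the mean intensities were background-corrected (normexp, offset 50) and loess-normalised within each array in limma 3.58.1 (R 4.3.3). Control and outlier spots had weight 0, and outlier spots were then left out. Probes had to exceed background in Cy5 on 4 or more of the 16 arrays (judged over the unflagged spots), and the brightest such probe stood for its gene; 20 members had further probes that passed. The 4 group means and sex were fitted on all 16 arrays, with Benjamini-Hochberg adjustment over 26514 genes for each of 5 comparisons. The p-values measure the spread between these animals. The method was tested on simulated data. The number of arrays limits the precision.

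Replicate numbers do not pair animals across groups: same-numbered animals correlated at -0.17 to 0.14 in their deviations from group means. Every member called was named, with values by animal for the 8 of smallest adjusted p in each diet comparison and for those called in both; of the others, the largest difference of each role without a call was named. Usp2, Usp9x, Usp49, Usp53, Ube3a, Ube4a, the further members of the roles with 3 or fewer genes, and the single-animal values of Ubqln1 and Nploc4 fall outside this rule and were chosen after their values were seen. The members and all gene lists were chosen with earlier results of these data known. Some genes are counted but not reported here by name. Probe sequences, genome positions and protein sequences were not used here.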

Additional observations from a re-analysis of the deposited data

Results flagged for a closer look

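Among 30 members, 113 groups of 4 animals were examined for an animal far from the other 3, and 3 were found; chance gives about 1 in 20 groups. Ube2g1 was -0.38 in Great Basin creosote animal 4 and -0.15 to -0.12 in the others. Ube2g2 was 0.30 in Mojave juniper animal 3 and 0.16 to 0.18 in the others. Uchl1, a dim probe above background on 6 arrays, was -0.10 in Mojave creosote animal 4 and 0.06 to 0.09 in the others.

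Usp52 differed on creosote in opposite directions in the 2 populations on every slide, and the diet difference in Mojave minus that in Great Basin animals was -0.71 (limma adjusted p = 0.0967), which did not pass the threshold.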

How the results depend on the processing

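The named calls kept their direction in all 608 combinations of call and setting, and 127 of these were no longer past the threshold. Apart from the loss of an animal, the Mojave call was lost in 5 settings for Usp47, 4 for Usp14 and 3 each for Ube4b and Ube2q. It was lost in 2 each for Usp19 and Usp28, and in 1 each for Ube2d2, Ube2g1, Ube2g2 and Usp22. Counted in the same way, the Great Basin call was lost in 8 settings for Ube4b and 7 for Usp14. For Usp18 and Usp5 it was lost in 5 each, and for Usp52 in 1. Median centring in place of loess gave 34 members in Mojave (median -0.48), 19 in the test of the difference between populations (-0.57), 24 between populations on creosote (-0.36), and medians of 0.028 in Great Basin animals and 0.17 between populations on juniper. The deposited log2 ratios gave 1 member in Great Basin (median -0.079) and 10 in Mojave animals (-0.21). In Great Basin animals the count was 3 with an offset of 16, 3 with the mean of all kept probes, 1 without the dimmest slide and 0 in males alone, where Mojave animals gave 7. Without a filter, over 77 members, the medians were -0.078 in Mojave and -0.10 for the difference between populations. Over the 55 members with a probe above background on all 16 arrays they were -0.25 and -0.23, and -0.20 between populations on creosote. Without the sex term 1 member differed between populations on creosote. Taking the brightest probe with a value on all 16 arrays, chosen after seeing the data, the median of the difference between populations was -0.18.

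The replicate number, which followed the slide except among Great Basin creosote animals, was also fitted as a block. It gave 3 members in Great Basin and 15 in Mojave animals. Of 16 animals, 2 correlated best with an animal of their own number. Leaving out 1 animal at a time gave 0 to 9 members in Great Basin (median -0.041 to 0.012), 11 to 18 in Mojave (-0.16 to -0.12), 0 to 4 for the difference between populations (-0.18 to -0.11), 0 to 2 between populations on creosote (-0.12 to -0.07) and 0 to 0 on juniper (0.06 to 0.09). The cause of these changes was not tested. Counts in this section stand without the share of all genes called, so their changes cannot be read as a trait of the members. Members above background on few arrays are limited by their signal: 51 of 70 were above it on all 16.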

Other observations

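Probes for the same member did not always run together. Usp9x, a large protease encoded on the X chromosome in rodents, had 5 probes that passed the filter. In Mojave animals they differed by 0.48 (the brightest, with values on 14 arrays), 0.96, 0.14, 0.12 and -0.083, and in Great Basin animals by 0.19, 0.58, 0.17, 0.033 and 0.29 in the same order. Ube2n, which builds chains with Ube2v1, had a second probe that differed by -0.48 in Mojave animals, where its brightest probe differed by -0.039.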
